A study of Mus musculus with 5 samples.

Results

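The genes described here are the adult globins of the mouse and 5 genes of erythroid heme synthesis and red cell maturation, read in invariant natural killer T (iNKT) cells sorted from liver. They were taken by symbol: the alpha globins Hba-a1 and Hba-a2, the beta globins Hbb-bs and Hbb-bt, and Alas2, Slc25a37, Bnip3l, Fech and Tmem14c, which makes 9 of the 55364 gene rows in each table. The study compared iNKT cells, T cells that recognise lipids on CD1d, between livers with hepatocellular carcinoma (HCC) and healthy livers. HCC libraries (n = 3) came from wild-type C57BL/6 males given 1 intraperitoneal dose of 25 mg/kg of the liver carcinogen diethylnitrosamine at 15 days of age and killed at 38 to 42 weeks. Healthy libraries (n = 2) came from wild-type mice given PBS, whose sex and age the labels give only through this shared protocol. The labels number the libraries without saying whether each is 1 mouse or a pool, so SDs and p-values measure the spread between libraries, which may be partly technical. Livers were mashed, passed through Percoll and freed of red cells with water, and cells positive for a PBS57-loaded CD1d tetramer and for TCR beta were sorted for 3' mRNA sequencing.

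Hemoglobin carries oxygen as a tetramer of alpha and beta chains, each holding 1 heme. Heme synthesis starts and ends in the mitochondrion: ALAS2 makes the first precursor in erythroid cells, mitoferrin-1 (Slc25a37) brings in iron, TMEM14C moves a porphyrin intermediate, and ferrochelatase (Fech) inserts the iron. BNIP3L, also called NIX, marks mitochondria for removal in reticulocytes, the last red cell stage that still holds RNA. T cells are not known to make adult globins, whereas Fech, Tmem14c and Bnip3l are active in many cell types.

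The 5 libraries differed in how finely they could measure these genes. Each table held whole numbers lying on a ladder whose step, estimated from the values and taken as 1 read, was 0.706, 0.440 and 1.39 in HCC 1, 2 and 3, and 2.65 and 0.759 in healthy 1 and 2. In healthy 1 all values up to 400 lay on this ladder, although it covers 37.5% of the whole numbers in that range. Dividing by the step gave about 2601250, 3903350 and 1352220 reads in HCC 1, 2 and 3, and 837862 and 2400500 reads in healthy 1 and 2. A value of 0 thus allows 3 reads, or 0.769 to 2.22 CPM in HCC libraries and 3.58 and 1.25 CPM in healthy 1 and 2, counting error only. Healthy 1, the shallowest library, also stood apart over all tested genes (r of log2 values 0.733 to 0.791 with the other 4, which correlated at 0.826 to 0.890 among themselves). HCC 2 and HCC 3 carry a common number in their table names, and whether both come from 1 mouse was not tested. The 12 iNKT cell markers summed to 4737 to 5604 CPM in HCC libraries and to 4279 and 5273 CPM in healthy libraries. Trbc2 was the largest part, and the sum hides markers that were low or uneven. Zbtb16, the factor that defines iNKT cells, was at 0 to 1.16 CPM in HCC libraries and at 1.35 and 1.65 CPM in healthy libraries. Trav11 and Trav11d were at 0 except for 0.549 CPM in healthy 2. Traj18 was at 3.18 to 14.1 CPM in HCC libraries, and at 0 and 48.3 CPM in healthy 1 and 2. Klrb1c was at 465, 20.9 and 333 CPM in HCC 1, 2 and 3, and at 382 and 5.49 CPM in healthy 1 and 2.

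Globin promoters are known for a TATA box, a CCAAT box and a CACCC box close to the start, with GATA sites as landing places of the erythroid factor GATA1. The 250 bases before the RefSeq start (GRCm38.p6) are shown for 4 genes whose levels were higher in all HCC libraries, because these members share such elements only in part. Capitals mark matches on either strand. The letters searched were ATATAA for the first of these boxes. The next box was searched by its own letters, CCAAT. The third was likewise searched as CACCC. Sites for the erythroid factor were searched as GATAA. The matches do not overlap one another, and the lines run 5' to 3' on the gene's own strand.
Hba-a1, chr11:32283422-32283671, plus strand: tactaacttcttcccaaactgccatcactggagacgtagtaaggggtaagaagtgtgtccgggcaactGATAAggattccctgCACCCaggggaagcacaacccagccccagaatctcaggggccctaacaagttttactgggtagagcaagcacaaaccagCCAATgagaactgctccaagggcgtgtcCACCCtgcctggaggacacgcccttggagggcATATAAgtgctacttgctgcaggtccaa
Hbb-bs, chr7:103827929-103828178, minus strand: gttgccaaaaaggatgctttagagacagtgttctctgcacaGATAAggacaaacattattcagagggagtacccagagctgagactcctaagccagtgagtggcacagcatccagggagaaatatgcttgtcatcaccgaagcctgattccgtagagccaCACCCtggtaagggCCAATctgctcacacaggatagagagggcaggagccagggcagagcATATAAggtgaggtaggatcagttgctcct
Hbb-bt, chr7:103813924-103814173, minus strand: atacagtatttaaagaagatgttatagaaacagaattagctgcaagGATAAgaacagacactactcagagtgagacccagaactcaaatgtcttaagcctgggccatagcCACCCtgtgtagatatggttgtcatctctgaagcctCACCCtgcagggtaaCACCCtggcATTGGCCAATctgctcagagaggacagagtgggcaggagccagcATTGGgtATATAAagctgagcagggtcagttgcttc
Alas2, chrX:150547167-150547416, plus strand: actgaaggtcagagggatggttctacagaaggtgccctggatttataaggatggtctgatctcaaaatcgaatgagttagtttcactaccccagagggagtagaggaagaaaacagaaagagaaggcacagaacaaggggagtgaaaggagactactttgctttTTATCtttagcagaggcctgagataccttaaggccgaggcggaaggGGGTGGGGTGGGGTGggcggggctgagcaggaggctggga
The window of Hba-a2 is the same sequence moved by 3 bases. In a longer stretch that also took in bases after the start, 297 of 297 bases compared were identical. All 4 globins held ATATAA, beginning 28 to 31 bases before the start, with the CCAAT box, the CACCC box and a GATA site further up. Hbb-bs, the more abundant beta globin, had 1 CACCC at 90 bases before the start, while Hbb-bt had 3, at 140, 104 and 89 bases, and in Hbb-bt a CCAAT on the minus strand lies directly beside the one on the plus strand. Alas2 had neither ATATAA nor CCAAT, but 3 CACCC on the minus strand side by side, and 1 GATAA on the minus strand at 86 bases. Of 27025 mouse promoters with such a window, 9.51% held ATATAA, 34.5% CCAAT, 51.3% CACCC, 23.02% GATAA and 0.488% all of them. Tmem14c, whose levels overlapped between the groups, also held a GATA site, a CCAAT box and CACCC boxes. RefSeq windows were matched for 6 of the 9 members.

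Globins were the members with the highest levels, and for all 4 the lowest HCC library exceeded the highest healthy library, as it did for 12.9% of all tested genes. Levels are CPM of the table's own total, and because the libraries read 3' ends they are not divided by transcript length. The comparison of HCC with healthy livers was known when these genes were chosen, so their differences are given as descriptions, and the fit over all genes reported further on is no independent evidence for them. Hba-a2 (ENSMUSG00000069917, GRCm38 chromosome 11, 32296489 to 32297298) was at 2918, 7184 and 6651 CPM in HCC 1, 2 and 3, and at 1378 and 1114 CPM in healthy 1 and 2. Hba-a1 (ENSMUSG00000069919, chromosome 11, 32283511 to 32284465) was at 2752, 5269 and 6200 CPM in HCC 1, 2 and 3, and at 1302 and 1036 CPM in healthy 1 and 2. For both alpha genes HCC 1 lay nearest to the healthy libraries and was still 2.12-fold and 2.11-fold above the higher of them.

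The beta globins had larger ratios of means than the alpha globins with all libraries, an order that turned for the family sums without healthy 1. Hbb-bs (ENSMUSG00000052305, chromosome 7, 103826534 to 103828096) was at 1333, 3683 and 1961 CPM in HCC 1, 2 and 3, and at 241 and 478 CPM in healthy 1 and 2. Hbb-bt (ENSMUSG00000073940, chromosome 7, 103812524 to 103813996) was at 373, 870 and 515 CPM in HCC libraries, and at 53.5 and 146 CPM in healthy libraries. Both beta genes were highest in HCC 2, lowest in healthy 1, and did not overlap between the groups. Group means were 2326 ± 1217 CPM in HCC and 360 ± 168 CPM in healthy libraries for Hbb-bs (6.47-fold), and 586 ± 256 and 99.8 ± 65.4 CPM for Hbb-bt (5.88-fold), with SD over n = 3 HCC and n = 2 healthy libraries. The alpha genes had means of 5585 ± 2324 CPM in HCC and 1246 ± 187 CPM in healthy libraries for Hba-a2 (4.48-fold), and of 4740 ± 1784 and 1169 ± 188 CPM for Hba-a1 (4.06-fold). Without healthy 1 the summed beta globins were 4.67-fold and the summed alpha globins 4.80-fold higher in HCC, and without healthy 2 they were 9.89-fold and 3.85-fold higher. Hbb-bt alone was 4.01-fold higher without healthy 1 and 10.95-fold higher without healthy 2.

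**Figure D1:**
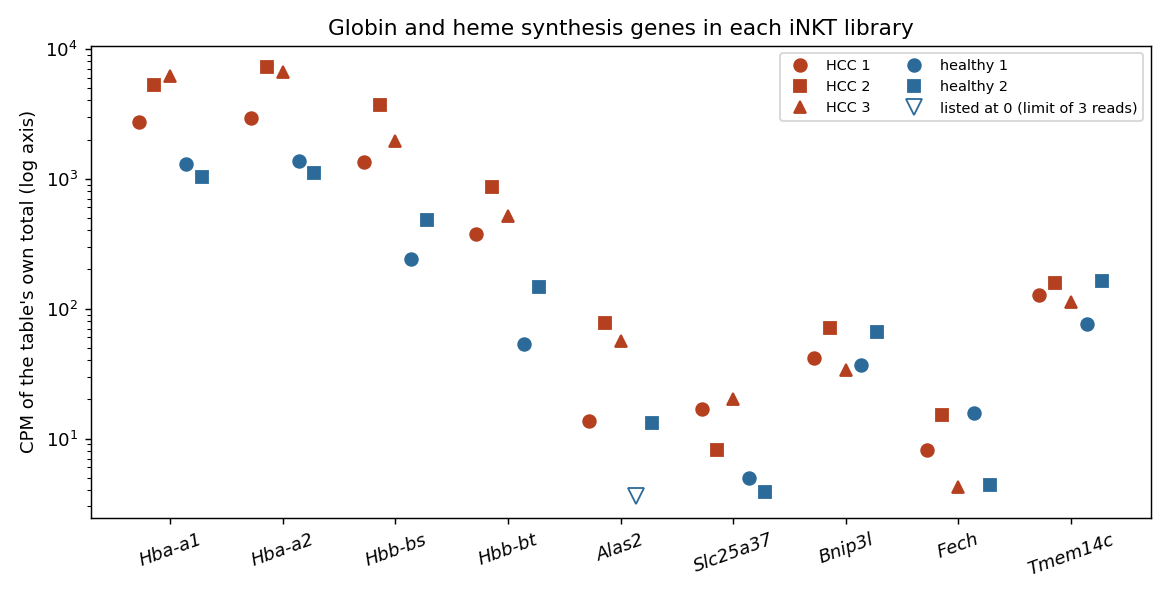
CPM of each of the 9 genes in each library on a log axis, with HCC libraries in red and healthy libraries in blue. Every point is 1 library, and the open triangle is the level of 3 reads (3.58 CPM) for Alas2, which was listed at 0 in healthy 1. The 4 globins separate the groups, whereas Bnip3l, Fech and Tmem14c overlap.

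The 4 globins together made up 0.738%, 1.70% and 1.53% of all values in HCC 1, 2 and 3, and 0.297% and 0.277% in healthy 1 and 2. Their sum was 13237 ± 5144 CPM in HCC and 2874 ± 142 CPM in healthy libraries, a 4.61-fold difference in means and 2.48-fold between HCC 1 and healthy 1, the nearest pair. The healthy libraries differed little from each other in this sum, although healthy 1 stood apart in other genes. The sum, mostly alpha globin, hides opposite differences within it. Healthy 1 and 2 were at 2680 and 2150 CPM for the alpha globins, and at 294 and 624 CPM for the beta globins. Without healthy 1 the log2 difference in means was 2.25, against 2.203 with all libraries. In bulk RNA, more cells of a type and more RNA per cell cannot be told apart.

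The alpha to beta ratio varied more between libraries of 1 group than between the groups. It was 3.33, 2.74 and 5.19 in HCC 1, 2 and 3 (95% Wilson intervals from estimated reads 3.22 to 3.44, 2.69 to 2.78 and 5.00 to 5.38), and 9.10 and 3.45 in healthy 1 and 2 (7.97 to 10.4 and 3.25 to 3.65). Healthy 2 thus fell among the HCC libraries and healthy 1 lay above all others, with only 247 estimated beta globin reads behind its value. The mean log2 ratio was 1.85 ± 0.47 in HCC (n = 3) and 2.49 ± 0.99 in healthy libraries (n = 2), and the difference, -0.63, became 0.069 without healthy 1 and -1.33 without healthy 2. With the mean of the alpha rows in place of their sum, as if each alpha read had been counted in both rows, the ratios were 1.66, 1.37 and 2.59 in HCC and 4.55 and 1.72 in healthy libraries.

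Within each family the shares were steadier. Hbb-bt made up 21.9%, 19.1% and 20.8% of beta globin reads in HCC 1, 2 and 3 (95% Wilson intervals 20.7 to 23.1, 18.5 to 19.7 and 19.5 to 22.2), and 18.2% and 23.4% in healthy 1 and 2 (13.9 to 23.5 and 21.3 to 25.6). Hba-a1 made up 48.5%, 42.3% and 48.2% of alpha globin reads in HCC 1, 2 and 3, and 48.6% and 48.2% in healthy 1 and 2. HCC 2 was the only library whose interval for Hba-a1, 41.9 to 42.7%, did not reach the others. Of the 31-base words in the last 300 bases of annotated transcripts, 89.9% of Hba-a1 and 85.0% of Hba-a2 occur in another gene, nearly all in each other, as do 69.1% of Hbb-bs and 40.7% of Hbb-bt. How reads that fit both genes of a family were assigned is not given, so the split within a family is uncertain.

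**Figure D2:**
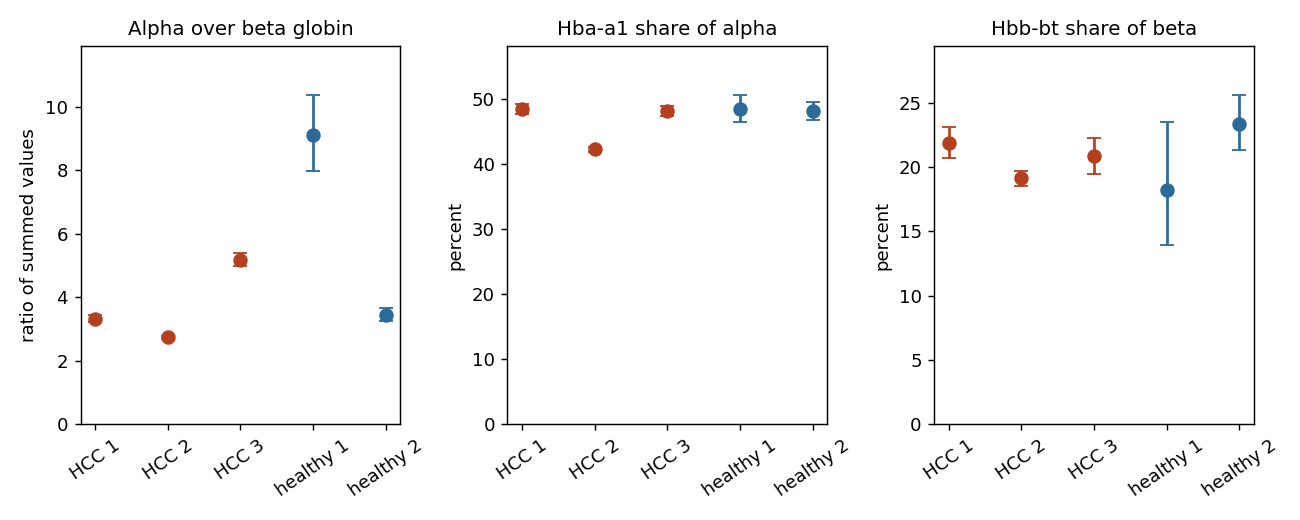
Alpha over beta globin ratio, share of Hba-a1 among alpha globin reads and share of Hbb-bt among beta globin reads in each library, HCC in red and healthy in blue, with 95% Wilson intervals that cover counting error only. The ratio of healthy 2 (3.45) lies among the HCC libraries (2.74 to 5.19), and that of healthy 1 (9.10) above them.

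Alas2, the enzyme that commits erythroid cells to heme synthesis (ENSMUSG00000025270, chromosome X, 150547375 to 150570638), had few reads, and its ratio of means depended on healthy 1. The ratio was 7.45-fold as listed, 5.86-fold with the 0 in healthy 1 set at 3 reads, and 3.73-fold without that library. It was at 13.6, 77.4 and 56.3 CPM in HCC 1, 2 and 3, and at 0 and 13.2 CPM in healthy 1 and 2. HCC 2 and HCC 3 were far above healthy 2, while HCC 1 exceeded it by 1.03-fold, on about 35.4 against 31.6 estimated reads. No 3' word of Alas2 occurs in another gene, and the overlapping antisense gene Apex2 held values of 0 to 7.

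Set against the globins in the same library, Alas2 did not separate the groups. There were 1.84, 4.55 and 3.67 Alas2 per 1000 globin in HCC 1, 2 and 3, and 0 and 4.75 in healthy 1 and 2. Healthy 2 had the highest proportion and HCC 1 the lowest of the libraries in which Alas2 was seen. The 0 in healthy 1 allows up to 1.20 per 1000, below the proportion in the other 4 libraries.

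Slc25a37, the erythroid mitochondrial iron importer (ENSMUSG00000034248, chromosome 14, 69241848 to 69285112), was also higher in all HCC libraries but in another order. Such a separation held for 12.9% of all tested genes. Slc25a37 was at 16.9, 8.15 and 20.2 CPM in HCC 1, 2 and 3, and at 4.95 and 3.84 CPM in healthy 1 and 2. These levels rest on about 43.9, 31.8 and 27.3 estimated reads in HCC 1, 2 and 3, and 4.14 and 9.22 in healthy 1 and 2. Healthy 1 was thus close to its level of 3 reads, 3.58 CPM. HCC 2, the library richest in globins, was the lowest of the HCC libraries. The mean was 15.1 ± 6.21 CPM in HCC and 4.39 ± 0.780 CPM in healthy libraries (3.43-fold), and 33.2% of its 3' words occur in Gm16867, whose values were 0 to 4.

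The other 3 members did not show the globin pattern. Bnip3l, the mitophagy receptor (ENSMUSG00000022051, chromosome 14, 66985239 to 67008877), was at 41.4, 71.0 and 34.0 CPM in HCC 1, 2 and 3, and at 36.9 and 66.4 CPM in healthy 1 and 2. Fech, which completes heme (ENSMUSG00000024588, chromosome 18, 64452914 to 64490251), was at 8.16, 15.1 and 4.25 CPM in HCC libraries, and at 15.7 and 4.39 CPM in healthy libraries. Tmem14c, the porphyrin transporter (ENSMUSG00000021361, chromosome 13, 41016292 to 41022586), was at 127, 157 and 113 CPM in HCC libraries, and at 76.4 and 163 CPM in healthy libraries. For each of these genes the groups overlapped, and the means of HCC over healthy libraries were 0.944-fold, 0.912-fold and 1.10-fold for Bnip3l, Fech and Tmem14c. Of the 3' words of Bnip3l, 40.8% occur in Bnip3l-ps, whose values were 16 to 66.

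Summed over the 4 non-globin members besides Alas2, the level was 205 ± 41.2 CPM in HCC and 186 ± 73.3 CPM in healthy libraries. With Alas2 the sum was 254 ± 65.0 CPM in HCC and 192 ± 82.6 CPM in healthy libraries, a log2 difference in means of 0.40 that was 0.018 without healthy 1 and 0.92 without healthy 2. The log2 difference of the globin sum, 2.203, was larger under each of these choices.

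**Figure D3:**
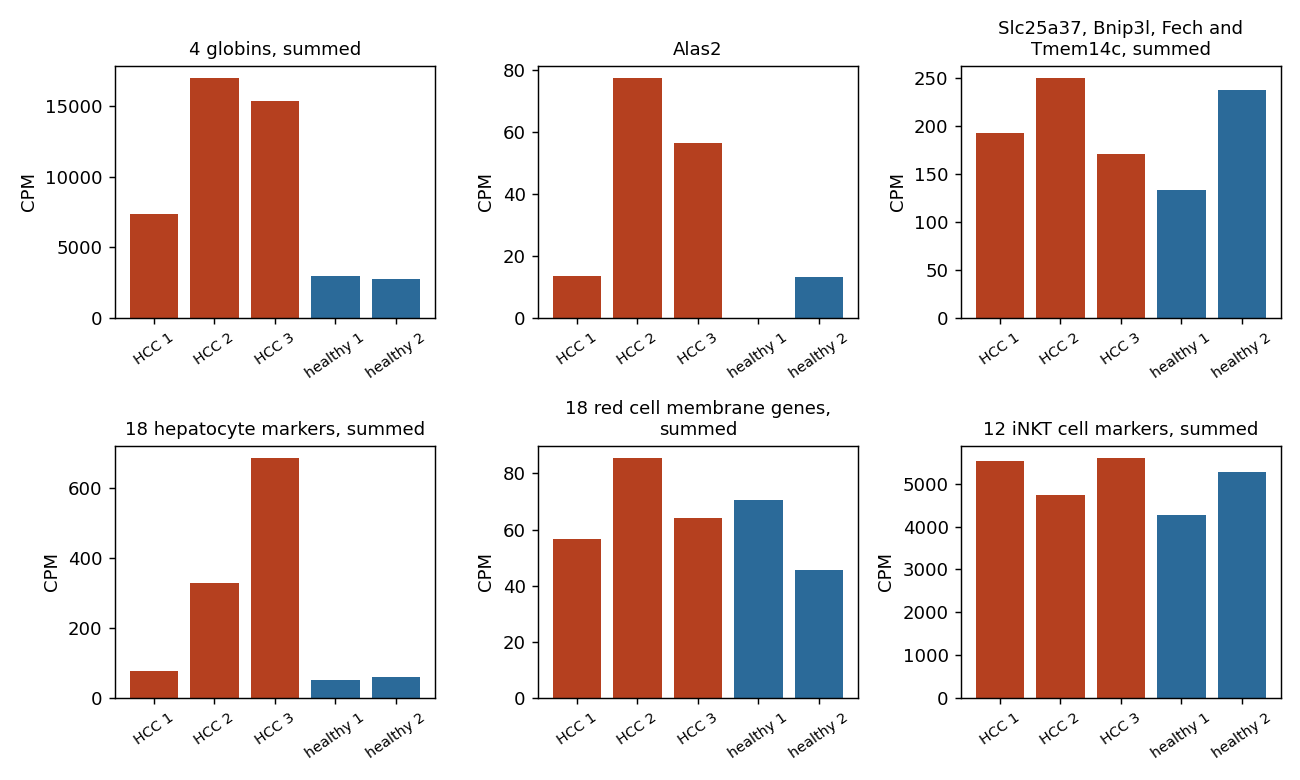
CPM per library, HCC in red and healthy in blue, for the summed globins, Alas2, the summed other non-globin members, hepatocyte markers, red cell membrane genes and iNKT cell markers, each bar being 1 library. The sums of globins and of hepatocyte markers are both higher in HCC libraries, the latter by only 1.28-fold in HCC 1 over healthy 2. Globins peak in HCC 2 (17006 CPM) and hepatocyte markers in HCC 3 (685 CPM). The summed other members, the membrane genes and the iNKT cell markers overlap between the groups.

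The fit across all genes, limma on log2 of the deposited values plus 1, called no gene. Of 8602 genes with at least 5 CPM in 2 libraries, 0 rose and 0 fell with an adjusted p under 0.05 (0% called in either direction), and at an unadjusted p under 0.05 there were 273 higher (3.17%) and 63 lower (0.732%). The smallest adjusted p in limma was 0.543. All 9 members passed the filter and 0 were called. Alas2 had a fitted log2 difference of 3.85 (SE 1.16), which was 1.53 without healthy 1 and 6.17 without healthy 2, and 4.35 and 2.68 with pseudocounts of 0.5 and 5. Slc25a37 had 1.44 (SE 0.75), Tmem14c 0.075 (SE 0.38), Fech -0.19 (SE 0.86) and Bnip3l -0.24 (SE 0.45). The healthy library left out set the sign for Fech, at 0.81 without healthy 1 and -1.19 without healthy 2, for Tmem14c, at -0.33 and 0.48, and for Bnip3l, at -0.52 and 0.036. In CPM, the lowest HCC library exceeded the highest healthy library for 6 of the 9 members and for 12.9% of all tested genes, and the reverse held for 0 members and 5.37% of genes. The median log2 difference over all tested genes was 0.059 on the deposited scale and 0.20 with each table's own total. Without healthy 2, limma called 434 of 8197 genes, 312 higher (3.81%) and 122 lower (1.49%), among them Hbb-bs, Hbb-bt and Alas2, in a fit that takes the lone healthy 1 to vary like the HCC libraries.

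Many genes that define the red cell were not detected, although the adult globins were among the abundant transcripts. Of 92 further erythroid and heme genes in 8 lists, 29 had a value of 0 in all 5 libraries. Zeros were common in general: of all 55364 gene rows, only 16664 had a value in any library. The embryonic globins Hba-x, Hbb-y, Hbb-bh1 and Hbb-bh2 were at 0 throughout, and of the other globins only the pseudogene Hbb-bh0 and Cygb, a globin of fibroblasts, had values, at most 1.35 and 2.12 CPM. Among red cell membrane genes, 10 of 18 were at 0 in every library, including the anion exchanger Slc4a1. Among erythroid regulators, 7 of 11 were at 0 in every library, including Gata1, Klf1, Tal1, Gfi1b and the erythropoietin receptor Epor. Carbonic anhydrase Car1 and the nuclear protein Hemgn were at 0 as well.

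Few of the genes of these lists that could be tested stood out. Of 42 tested genes 0 were called in either direction. At an unadjusted p under 0.05 in limma, 2 (Isg20 and Ulk1) were higher and 0 lower, beside 3.17% and 0.732% of all tested genes. Of the 42, 25 had a fitted difference above 0, with a median of 0.25 against 0.059 over all genes. The groups did not overlap in CPM for 10 of the 42, with HCC higher for 8 and lower for 2, beside 12.9% and 5.37% of all tested genes. Without healthy 2 the fitted log2 differences of Fbxo7, Iscu, Ulk1 and Gabarapl2 were 4.57, 5.03, 4.99 and 1.43. That fit rests on the lone healthy 1, where Fbxo7, Iscu and Ulk1 were at 0, as was Isg20. In the omitted healthy 2, Fbxo7 was at 20.3, Iscu at 21.4 and Gabarapl2 at 166 CPM. In HCC libraries these were at 7.07 to 19.1, 9.02 to 25.6 and 117 to 154 CPM. Ulk1 was lower in healthy 2, at 6.59 CPM, than in HCC libraries, at 11.4 to 28.5 CPM. Among the other heme synthesis enzymes, 2 of 5 tested had a fitted difference above 0 (median -0.31), and Alad, the second enzyme of the pathway, was at 23.4, 48.9 and 27.6 CPM in HCC 1, 2 and 3, and at 75.1 and 16.5 CPM in healthy 1 and 2. Urod, a later enzyme, was at 19.5 ± 7.5 CPM in HCC and 23.2 ± 14.2 CPM in healthy libraries.

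Transport and breakdown of heme gave no common direction. In mitochondrial iron and heme transport 3 of 7 tested genes had a fitted difference above 0 (median -0.39). Glrx5, which helps to build iron-sulfur clusters, averaged 95.7 CPM in HCC and 117 CPM in healthy libraries, and Slc25a39, a mitochondrial glutathione carrier, averaged 49.9 and 36.6 CPM. In heme export and breakdown 3 of 4 were above 0 (median 0.61), with Slc48a1, a heme transporter of lysosomes, at 38.5 CPM in HCC and 30.8 CPM in healthy libraries, and the heme oxygenase Hmox2 at 37.6 and 17.5 CPM. Hmox2 lay above both healthy libraries in every HCC library, by 1.06-fold at the nearest, a separation that held for 12.9% of all tested genes. Among the few tested membrane genes and regulators, Epb41, a membrane skeleton protein also found in lymphocytes, was at 56.3 and 49.7 CPM, Gypc at 6.25 and 2.47 CPM, Ldb1 at 49.1 and 27.4 CPM and Zbtb7a at 37.1 and 41.4 CPM in HCC and healthy libraries, all of them means.

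In the list of late erythroblast and reticulocyte genes, 4 of 11 tested genes (36.4%) were highest in HCC 2, near the 28.7% of all tested genes. Bpgm and Mkrn1 are examples chosen after their values were seen, as is Bcl2l1, which had the opposite direction. Bpgm, the red cell enzyme that makes 2,3-bisphosphoglycerate, was at 11.4, 25.6 and 7.96 CPM in HCC 1, 2 and 3, and at 3.60 and 6.59 CPM in healthy 1 and 2. Mkrn1 was at 71.8, 147 and 72.7 CPM in HCC libraries, and at 56.2 and 70.3 CPM in healthy libraries. Both genes lay higher in every HCC library than in either healthy library, by 1.02-fold at the nearest for Mkrn1. Bcl2l1, a survival factor of late erythroblasts and other cells, was at 33.2, 27.9 and 34.0 CPM in HCC 1, 2 and 3, and at 52.6 and 46.7 CPM in healthy 1 and 2. Over the list 8 of 11 tested genes had a fitted difference above 0 (median 0.28), and its most abundant members were Gpx1, a peroxidase, at means of 183 CPM in HCC and 166 CPM in healthy libraries, and Prdx2, at 77.3 and 98.4 CPM. In the list of mitophagy and autophagy, 5 of 9 were above 0 (median 0.22), with Sqstm1, an autophagy adaptor, at 255 and 166 CPM, and Gabarapl2, an LC3 relative, at 140 and 104 CPM in HCC and healthy libraries.

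**Figure D4:**
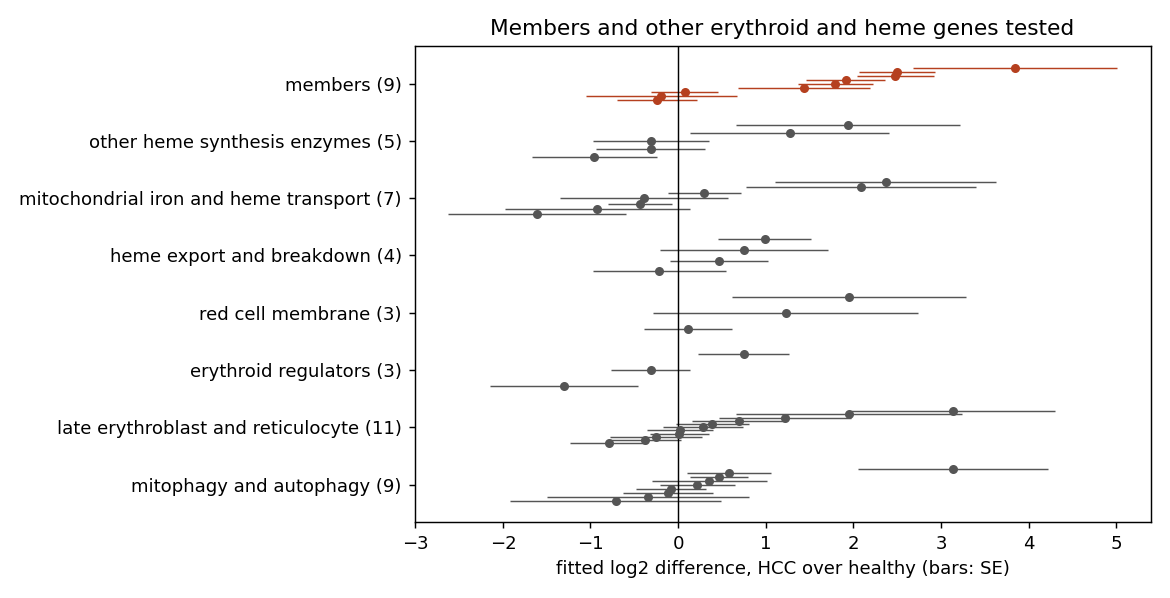
Fitted log2 difference of HCC over healthy for each tested gene, with SE bars, grouped by list with the number of tested genes in parentheses. Members in red reach from -0.24 (Bnip3l) to 3.85 (Alas2), and the genes of the other lists lie on both sides of 0, with a median of 0.25 over their 42 genes.

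The summed markers of hepatocytes, the main cells of the liver, were also higher in HCC libraries, and their part in the globin result was not tested. All 18 hepatocyte markers had a value in some library, and they summed to 75.6, 328 and 685 CPM in HCC 1, 2 and 3, and to 52.1 and 59.3 CPM in healthy 1 and 2. The sum in HCC 1 exceeded that in healthy 2 by only 1.28-fold, and it hides markers that differed. In HCC 1, Alb (7.07 CPM) lay below healthy 2 (18.1 CPM), whereas Ttr (5.44 CPM) lay above healthy 1 and 2 (1.35 and 1.65 CPM). HCC 1 was the lowest HCC library for the sums of both hepatocyte markers and globins, but globins peaked in HCC 2 and hepatocyte markers in HCC 3. Platelet markers summed to 48.8 to 73.3 CPM in HCC libraries and to 38.2 and 36.8 CPM in healthy 1 and 2, but 8 of 10, among them Pf4, Ppbp and Gp9, were at 0 in every library, and the sum was nearly all Itgb3, an integrin that other cells also make. Neutrophil markers summed to 2.12 to 12.8 CPM in HCC libraries and to 0 and 1.10 CPM in healthy libraries, with Mpo, Elane, Ngp, Camp, Ltf and Csf3r at 0. Macrophage and Kupffer cell markers were at 0 to 24.5 CPM in HCC and at 44.5 and 1.10 CPM in healthy libraries, liver endothelium markers at 0 to 1.06 CPM in HCC and 0 in healthy libraries, and B cell markers at 112 to 175 CPM in HCC and 36.0 and 123 CPM in healthy libraries.

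The genes nearest in profile to the summed globins are listed as a description only. Among so many genes compared over 5 libraries, some lie close whatever their function. Likeness was the root mean square difference of centred log2(CPM + 1) over the 5 libraries, among 4853 genes averaging 10 CPM or more. The 6 nearest were Nol10 (0.139), Ap3b1 (0.289), Nup88 (0.298), Pskh1 (0.322), Slc25a45 (0.335) and Ddx54 (0.353). Nol10, a nucleolar protein, was at 8.16, 22.7 and 23.9 CPM in HCC 1, 2 and 3, and at 3.60 and 3.29 CPM in healthy 1 and 2, levels at which 3 reads of healthy 1 are worth 3.58 CPM. Slc25a37 ranked 294 (0.760), Tmem14c 1955 (1.08), Bnip3l 2916 (1.20) and Alas2 4218 (1.45), while Fech averaged below 10 CPM and was not ranked. The measure also counts the size of a difference, and for Alas2 it takes in the 0 in healthy 1, which allows 3.58 CPM. Its rank therefore does not say that Alas2 followed the globins less than Tmem14c or Bnip3l did.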

How the data were processed

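Libraries were made with a QuantSeq 3' kit for Ion Torrent, per the labels' protocols. The deposited signal values are whole numbers per Ensembl gene ID, 1 table per library. They behave as reads multiplied by 1 factor per library and rounded: the most likely step was found from how often each value occurs, and the median-of-ratios factors of the tables were nearly equal (1.02 to 1.03). The submitters' processing notes list HISAT2 and Bowtie2 (aligners), bcl2fastq, and the packages limma, edgeR, DESeq and DESeq2, with no step given for any, and the build mm10. For the counting program and its strand setting, the entry is: not given in the sources used here. A count model had been planned and was not used on these rounded normalized values. The test was limma 3.58.1 (R 4.3.3) with an intensity trend on log2(value + 1), for genes with at least 5 CPM in 2 libraries, with Benjamini-Hochberg adjustment at 0.05. The fit was tested on simulated data in which some genes were changed, and a few of the genes simulated without a difference were called as well. Fitted changes of low genes depend on the pseudocount and can lie above or below the log2 ratio of mean CPM. They were 3.85 against 2.90 for Alas2, 2.37 against 0.84 for Iscu and 1.28 against 1.90 for Alas1. Levels are CPM of each table's own total. Intervals use estimated reads, which are not distinct molecules. Symbols came from GENCODE M21 for 55104 of 55364 IDs, promoters from RefSeq (GRCm38.p6). Rows of pseudogenes held 31.7 to 38.5% of the values. Members and lists were chosen with earlier results of these data known. The rule for names took all members, the 2 most abundant genes of each list and the 6 most alike in profile, and other genes named with a count or an example were chosen after their values were seen. Values of some listed genes are not reported here. Ahsp and Fcn3 were not matched by symbol and were not analysed here. Libraries are the units of all SDs and tests. Alternatives were other scalings, filters, pseudocounts and variance models, a replicate block and leaving out each library.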

Additional observations from a re-analysis of the deposited data

How the results depend on the processing

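The count of 0 called genes in limma held under other scalings, filters, pseudocounts and variance models, with HCC 2 and HCC 3 averaged, and without any library except healthy 2: leaving out each library gave 0 to 434 genes, 0 to 3 members and 0 to 4 other erythroid and heme genes, the highest values all without healthy 2. With the replicate number as a block, 2 genes were called, both of them members (Hbb-bs and Hbb-bt), and 0 other erythroid and heme genes. HCC 3 has no numbered partner, so this fit takes its differences from the other 4 libraries alone. The block fit also leaves almost no spread of a gene's own to judge by. Its calls therefore rest on the spread pooled over all genes and are no stronger evidence than the main fit. The numbers are not known to pair the libraries. Deviations of same-numbered libraries from their group means correlated at 0.0032 and 0.11, which cannot decide it. With 2 healthy libraries these deviations mirror each other, so the other-numbered pairs had to give -0.0032 and -0.11. The log2 difference of the globin sum ranged from 1.98 to 2.49 without single libraries and from 2.03 to 2.41 under the other choices. That of the non-globin members ranged from 0.018 to 0.92 without single libraries and from 0.24 to 0.42 otherwise. That of the alpha to beta ratio ranged from -1.33 to 0.069 without single libraries, changing sign without healthy 1, and from -0.70 to -0.62 otherwise. The pseudocounts of 0.5 and 5, the fit without a trend, the sample quality weights and the deposited scaling were chosen after seeing the data. The count-based tests and TMM scaling that had been planned were not run. With 837862 estimated reads, healthy 1 limits what can be said of genes near 3 reads, Alas2 among them.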
